A study of Mus musculus with 6 samples.

Results

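The enzymes that write, copy and remove DNA methylation were examined in mouse embryonic stem (ES) cells of a Dppa4 knockout line. The set holds 8 genes: the de novo methyltransferases Dnmt3a and Dnmt3b with their cofactor Dnmt3l, the maintenance pair Dnmt1 and Uhrf1, and the dioxygenases Tet1, Tet2 and Tet3. Its members were taken by exact gene symbol from the platform annotation, which gave 20 of the 45037 probe sets tested, that is 8 of 18193 named genes. No probe set shared with another gene named a member. Expression was measured on Affymetrix arrays in 2 groups of 3: the Dppa4 knockout ES cell line CI#243.12 and its parental line CI#84.2, which is Dppa4 hemizygous and so keeps 1 copy. Each group is thus a single cell line, and mouse embryonic fibroblasts served as feeders for both, with no mention that they were removed before RNA was taken. Dppa4 encodes a chromatin-associated protein of pluripotent cells and early embryos, and the comparison asks how ES cells are affected by its loss. With 1 line a group, an effect of that loss cannot be told apart from other differences between the lines.

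In mammals, methyl groups are placed on cytosines of CpG dinucleotides. Dnmt3a and Dnmt3b set new methylation, and Dnmt3l, which lacks methyltransferase activity, binds them and stimulates it. After replication, Uhrf1 recognises half-methylated DNA and brings Dnmt1 to copy the mark to the new strand. Tet enzymes oxidise methylcytosine, which opens a route to its removal. ES cells are known for strong expression of Dnmt3b, Dnmt3l and Tet1.

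The targeted gene had a lower signal in all 3 arrays labelled knockout. Its probe set 1429597_at fell by 1.63 on the log2 scale (SE 0.08, limma adjusted p = 0.000112), to 32.2% of the signal in the parent. The knockout arrays still read 8.68, 8.84 and 8.68, far above the background level of 3.78. It is not known here whether its probes match the deleted part of Dppa4. The pluripotency factor genes Pou5f1 and Sox2 differed by -0.06 (SE 0.07, adjusted p = 0.852) and -0.08 (SE 0.07, adjusted p = 0.797). Nanog differed by -0.49 (SE 0.10, adjusted p = 0.122) and its groups did not overlap. ES markers were thus present in both groups. The 18 feeder fibroblast markers, led by the collagen genes Col1a2 and Col3a1, were also all above background. Their mean lay between 10.27 and 10.37 in parental and between 10.39 and 10.50 in knockout arrays, without overlap, and 16 of the 18 were higher in knockout cells. Of these 18, 0 passed the test of limma, and 2 had an unadjusted p under 0.05. Whether this shift has a part in the results below was not tested. Since the samples are bulk cultures, fewer cells of a type and less RNA per cell cannot be told apart.

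Of the 20 probe sets, 1 rose in knockout cells, the probe set of Dnmt3l, and 0 fell. Over all 45037 probe sets, 0.0688% rose and 0.333% fell by the same test, which is limma's moderated fit with a Benjamini-Hochberg adjusted p under 0.05. The groups did not overlap for 3 of the 20, Dnmt3l higher and 2 probe sets of Tet1 lower. Over the whole table, groups did not overlap with knockout higher in 6.71% of probe sets and with knockout lower in 7.52%. The median change of the 20 was -0.04, beside 0.00 over all probe sets, and the changes ran from -0.49 to 0.65. All 20 lay above the background level of 3.78 on every array, so no change of the set is a bound. Values are given on the log2 scale throughout, and changes are knockout minus parental.

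**Figure D1:**
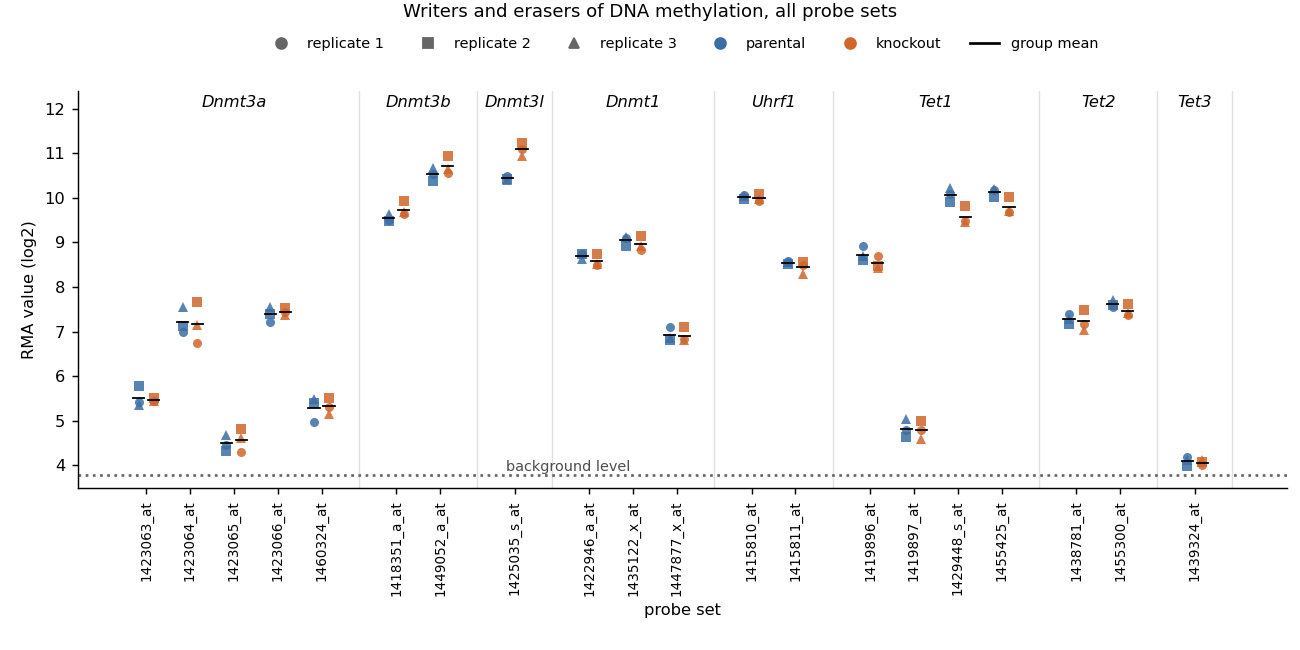
RMA values (log2, vertical axis) of all 20 probe sets of the 8 genes on the 6 arrays. Marker shapes are replicates, black bars are group means of 3 arrays and the dotted line is the background level of 3.78. The 3 knockout arrays of Dnmt3l lie above its 3 parental arrays, those of Tet1 1429448_s_at and 1455425_at lie below, and elsewhere the groups overlap.

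Dnmt3l was the gene that rose. Its probe set 1425035_s_at read 10.50, 10.42 and 10.40 on the parental arrays against 11.09, 11.24 and 10.94 on the knockout arrays. Every knockout array was above every parental array, and the parental values lay close together. The change was 0.65 (SE 0.09, 95% interval 0.44 to 0.86), a 1.57-fold difference, with an adjusted p of 0.0318 (limma). An exact permutation test gave a two-sided p of 0.1, the smallest possible with 3 arrays against 3. Dnmt3l has no other probe set on the array, and the s_at ending marks a probe set that can match more than 1 transcript. The size of the rise held within 0.57 to 0.72 when any single array was left out, but the call did not: the adjusted p was 0.115, 0.123 and 0.130 without parental replicate 1, 2 or 3. It was 0.147 without knockout replicate 1, 0.0782 without knockout replicate 2 and 0.0464 without knockout replicate 3. The replicate number as a block gave an adjusted p of 0.122.

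**Figure D2:**
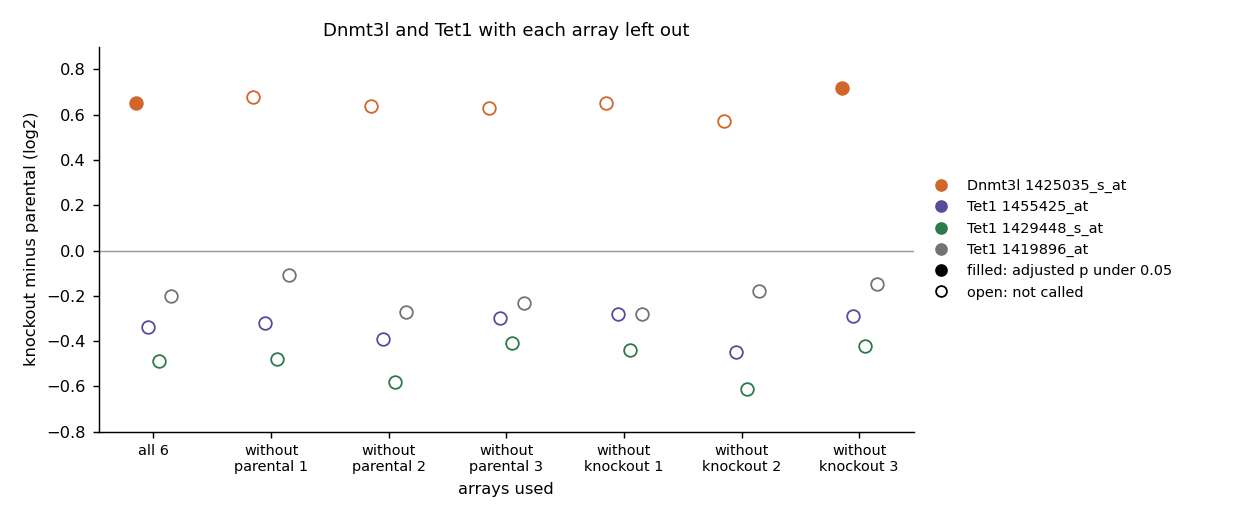
Change (knockout minus parental, log2, vertical axis) of Dnmt3l and of the 3 brighter Tet1 probe sets, over all 6 arrays and with each array left out in turn. Filled points have an adjusted p under 0.05 (limma). Dnmt3l stays between 0.57 and 0.72 and is filled for all 6 arrays and without knockout replicate 3, while the Tet1 points are below 0 and open throughout.

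The windows around the annotated starts of Dnmt3l are printed because this gene changed, with CpG dinucleotides, the substrate of these enzymes, marked. RefSeq (GRCm38.p6) gives 3 starts for Dnmt3l, all on the plus strand, and each window runs from 250 bases before to 50 bases after the start. They lie at chr10:78042037-78042336, chr10:78049592-78049891 and chr10:78055085-78055384. The single Dnmt3b window at chr2:153649199-153649498, also on the plus strand, is shown for contrast. CpG dinucleotides are in capitals.
Dnmt3l, upstream start: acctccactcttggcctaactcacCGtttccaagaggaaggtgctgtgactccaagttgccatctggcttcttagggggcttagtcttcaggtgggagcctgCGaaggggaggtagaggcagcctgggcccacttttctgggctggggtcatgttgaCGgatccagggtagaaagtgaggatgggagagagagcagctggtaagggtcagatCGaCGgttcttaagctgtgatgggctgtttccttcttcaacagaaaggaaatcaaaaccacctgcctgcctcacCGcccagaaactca
Dnmt3l, middle start: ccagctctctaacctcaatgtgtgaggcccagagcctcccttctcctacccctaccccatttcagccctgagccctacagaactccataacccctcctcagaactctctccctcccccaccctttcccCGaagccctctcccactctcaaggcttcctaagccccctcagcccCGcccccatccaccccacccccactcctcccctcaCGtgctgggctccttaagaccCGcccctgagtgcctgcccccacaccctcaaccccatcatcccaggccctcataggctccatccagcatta
Dnmt3l, downstream start: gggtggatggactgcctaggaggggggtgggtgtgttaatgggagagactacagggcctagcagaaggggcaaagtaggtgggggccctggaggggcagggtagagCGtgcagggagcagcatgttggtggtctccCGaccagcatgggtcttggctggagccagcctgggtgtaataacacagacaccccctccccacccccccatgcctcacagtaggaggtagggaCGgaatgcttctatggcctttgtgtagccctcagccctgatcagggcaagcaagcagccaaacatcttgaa
Dnmt3b: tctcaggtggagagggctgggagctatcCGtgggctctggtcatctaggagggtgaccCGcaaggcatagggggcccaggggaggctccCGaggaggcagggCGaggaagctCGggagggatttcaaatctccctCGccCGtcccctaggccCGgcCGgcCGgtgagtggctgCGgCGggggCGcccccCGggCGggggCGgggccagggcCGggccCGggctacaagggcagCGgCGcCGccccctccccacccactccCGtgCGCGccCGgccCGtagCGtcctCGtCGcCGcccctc

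The Dnmt3l windows held 6, 4 and 3 CpGs, against a median of 7 over 32851 windows of 300 bases in the table. As few or fewer were held by 47.9%, 38.0% and 31.4% of all windows, so these counts are ordinary. Dnmt3b held 30, a number reached by 11.7% of all windows. Windows were found for all 8 genes, 15 in all, with 2 CpGs at the most upstream start of Dnmt1 and 57 in Tet2. The remaining genes ranged between these, with 46, 47 and 18 in Dnmt3a, 17 in Tet1, 22 in Tet3, and 12 and 33 in Uhrf1. The letters CACGTG, the same on both strands, were present in 2 of the 15 windows, the middle Dnmt3l start and the downstream Dnmt3a start, and in 7.15% of all windows. The letters TCCCGC on either strand were in 6 of the 15, none of them in Dnmt3l, Dnmt3b or Tet1, and in 20.0% of all windows. Which start was used in these cells was not measured, and the arrays do not measure methylation.

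The catalytic partners of Dnmt3l did not pass the test. Dnmt3b was read by a pair of probe sets with nearly equal differences. On 1449052_a_at it read 10.54, 10.39 and 10.68 in parental and 10.55, 10.94 and 10.64 in knockout samples, a change of 0.17 (SE 0.12, adjusted p = 0.727). On 1418351_a_at the values were 9.51, 9.49 and 9.65 against 9.63, 9.92 and 9.68, a change of 0.19 (SE 0.10, adjusted p = 0.594). Both group means were higher in knockout, the groups overlapped on each, and knockout replicate 2 was the highest of all 6 arrays on both. The 95% intervals, -0.10 to 0.45 and -0.03 to 0.42, include 0 and stop short of the 0.65 seen for Dnmt3l. The first of them still meets the interval of Dnmt3l itself, 0.44 to 0.86.

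Dnmt3a, the other de novo enzyme, had 5 probe sets. Its brightest, 1423066_at, read 7.22, 7.39 and 7.56 in parental and 7.45, 7.52 and 7.38 in knockout samples, a change of 0.06 (SE 0.10, adjusted p = 0.903). The groups overlapped there and on the other 4, whose changes were -0.05, -0.04, 0.08 and 0.04. Dnmt3a also held the noisiest member, 1423064_at, where knockout arrays ranged from 6.74 to 7.66 (SD 0.46, n = 3) and the 95% interval ran from -0.57 to 0.48. The change of 0.65 seen for Dnmt3l lies outside the intervals of all 5, though that of 1423064_at meets the interval of Dnmt3l, 0.44 to 0.86.

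**Figure D3:**
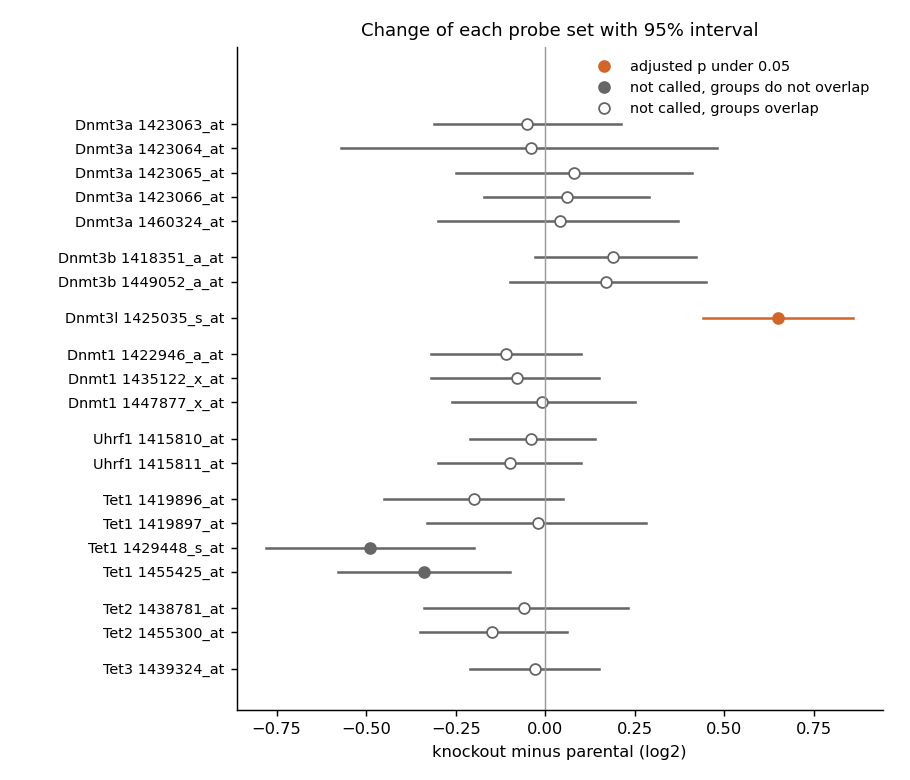
Change of each of the 20 probe sets (knockout minus parental, log2, horizontal axis) with its 95% interval from limma's moderated fit, 3 arrays a group. Filled points have groups that do not overlap, and orange has an adjusted p under 0.05. Dnmt3l at 0.65 stands to the right, and 2 Tet1 probe sets at -0.49 and -0.34 stand to the left with intervals that leave out 0.

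Neither maintenance gene passed the test, and the intervals of all their probe sets included 0. Uhrf1, which encodes the reader that guides Dnmt1, read 10.07, 9.98 and 10.04 in parental and 9.92, 10.09 and 9.97 in knockout samples on 1415810_at. The groups overlapped and differed by -0.04 (SE 0.08, 95% interval -0.21 to 0.14, adjusted p = 0.927). On 1415811_at Uhrf1 differed by -0.10 (SE 0.09, adjusted p = 0.792). Dnmt1 itself read 9.11, 8.91 and 9.13 against 8.84, 9.14 and 8.92 on 1435122_x_at, again with overlap. Its 3 probe sets differed by -0.08, -0.11 and -0.01, with adjusted p from 0.775 to 0.992. None of the intervals of Dnmt1 or Uhrf1 reached beyond -0.32 or 0.25.

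Among the erasers, Tet1 had the lowest values in knockout cells relative to the parent. Tet1 is the main Tet enzyme of ES cells. On 1429448_s_at it read 10.09, 9.90 and 10.23 in parental and 9.48, 9.82 and 9.45 in knockout samples, and on 1455425_at 10.17, 10.03 and 10.21 against 9.68, 10.01 and 9.70. Both probe sets separated the groups, the latter by only the gap between 10.03 and 10.01. Their changes were -0.49 (SE 0.13, 95% interval -0.78 to -0.20, adjusted p = 0.231) and -0.34 (SE 0.11, 95% interval -0.58 to -0.10, adjusted p = 0.350). Neither passed the test of limma over all probe sets, and the exact permutation p was 0.1 for each, the lowest possible. The third bright probe set, 1419896_at, gave -0.20 (SE 0.11, adjusted p = 0.621), with overlap, and the dim 1419897_at gave -0.02 (SE 0.13, adjusted p = 0.977). Taken as the mean of its 4 probe sets, Tet1 differed by -0.26 (adjusted p = 0.457). Leaving out any array kept the brighter pair between -0.61 and -0.28, with adjusted p from 0.131 to 0.668.

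Tet2 and Tet3 showed no such separation. Tet2 read 7.56, 7.59 and 7.70 in parental and 7.37, 7.62 and 7.42 in knockout samples on 1455300_at, a change of -0.15 (SE 0.09, adjusted p = 0.688). On 1438781_at it differed by -0.06 (SE 0.12, adjusted p = 0.930). Tet3, an enzyme best known from the oocyte and zygote, stayed near background with 4.18, 3.99 and 4.11 in parental and 4.01, 4.07 and 4.11 in knockout samples. Its change was -0.03 (SE 0.08, adjusted p = 0.947), and a probe set this dim says little about the gene.

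Within each array, Dnmt3l was then set against every other member to see whether the changes were unequal. The ratio of Dnmt3l to Tet1 (1455425_at) differed most, being higher in knockout by 0.99, and that to Dnmt3b least, by 0.48. The ratios to Dnmt3a, Dnmt1, Uhrf1, Tet2 and Tet3 were higher by 0.59, 0.73, 0.69, 0.80 and 0.68. In all 7 pairs the knockout ratios lay above the parental ones, with SDs of 0.04 to 0.22. The exact permutation p was 0.1 for each and 0.1 after adjustment over the 7, the smallest that 3 against 3 allows. A ratio can show only that the genes of a pair changed unequally, and all 7 share the values of Dnmt3l. Dnmt3l is also the member called on these same arrays. The separation of the ratios therefore follows largely from its rise and is no further evidence of it.

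The genes whose profile over the 6 arrays lay closest to that of Dnmt3l were 5730507C01Rik, Pkp2, Pramel12, Trnau1ap and Ppp1r9a. Likeness was measured as the root mean square distance between log2 profiles centred on their own mean, over 18192 other genes. The distances were 0.0531, 0.0793, 0.0812, 0.0860 and 0.0877. Pkp2, a desmosome component gene, differed by 0.52 (adjusted p = 0.107) and Pramel12, a leucine-rich repeat family member, by 0.54 (adjusted p = 0.0506). In the closest gene, 5730507C01Rik, the change was 0.65 (adjusted p = 0.0341). Trnau1ap, which encodes a tRNA selenocysteine-associated protein, rose by 0.64 (adjusted p = 0.0227). Such a profile is high on all 3 knockout arrays and highest on replicate 2. These genes were picked for likeness over the same 6 arrays. Their rises, adjusted p-values and peak on replicate 2 follow from that choice and are no separate result.

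That array stood out for the set as a whole. Knockout replicate 2 was the highest knockout array, ties counted, for 18 of the 20 member probe sets, whereas over all probe sets it was so for 39.3%. The mean of the 20 was 7.96 on this array and 7.71 on each of the other knockout arrays, while the parental means were 7.81, 7.76 and 7.89. Genes of cycling cells followed the same order: their mean was 9.93 on knockout replicate 2, 9.74 and 9.72 on replicates 1 and 3, and this array was the highest for 9 of 9. Among lists described below, knockout replicate 2 was also highest for 11 of 13 partners of maintenance methylation and 10 of 14 regulators of writers. For genes of the reader list it was highest in 4 of 13. On the parental side, replicate 2 was the lowest of its group for 13 of 20 member probe sets and for 8 of 9 cycling genes. It was also lowest for 9 of 13 maintenance partners, but for 1 of 8 ES cell markers. The share over all probe sets was not taken for the lowest array. The part of cell cycling in the members' values was not tested. Without knockout replicate 2, Tet1 differed by -0.61 (adjusted p = 0.131) and -0.45 (adjusted p = 0.166), Dnmt3b (1449052_a_at) by 0.06 and Dnmt3l by 0.57. None of these passed the test. The differences were smaller for Dnmt3b and Dnmt3l and farther from 0 for Tet1 than with the array.

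The wider pathway was read through 1 probe set a gene, the one with the highest mean. By gene, 0.511% of 18193 fell and 0.0934% rose with an adjusted p under 0.05, and 6.37% were lower and 4.66% higher at an unadjusted p under 0.05. Partners of maintenance methylation had 13 measured genes, of which 0 passed the test of limma, with 3 lower and 1 higher at an unadjusted p under 0.05. Their median change was -0.05, beside 0.00 over all genes. Pcna, the replication clamp that Dnmt1 binds, differed by -0.09 (adjusted p = 0.807) and the deacetylase gene Hdac1 by -0.03 (adjusted p = 0.936). Of the genes named after their values were seen, Hells, a chromatin remodeller needed for methylation of repeats, read 10.42, 10.36 and 10.52 against 9.92, 10.30 and 9.98, a change of -0.37 (SE 0.11, adjusted p = 0.324). Cdca7, which partners with Hells, differed in the other direction by 0.21 (adjusted p = 0.516), and its relative Cdca7l by -0.36 (adjusted p = 0.285). The groups did not overlap for any of these 3.

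No gene of those that act on the writers passed the test. Of the 14 measured, 0 passed in limma, 6 were lower and 0 higher at an unadjusted p under 0.05, and the median change was -0.17, with a range from -0.53 to 0.00. The most abundant were the histone demethylase gene Kdm1a, which differed by -0.26 (adjusted p = 0.328), and the zinc finger gene Sall4, which differed by -0.19 (adjusted p = 0.520). The largest differences, named after their values were seen, were those of Dppa3 and Prdm14. Dppa3 encodes a protein that protects the maternal genome from demethylation and can hold Uhrf1 away from chromatin. It read 8.18, 8.21 and 7.93 against 7.75, 7.41 and 7.57, a change of -0.53 (SE 0.11, adjusted p = 0.143). Prdm14, a known repressor of Dnmt3b and Dnmt3l in ES cells, read 6.81, 7.27 and 6.79 against 6.37, 6.44 and 6.60, a change of -0.49 (SE 0.14, adjusted p = 0.281). In both genes every knockout array lay below every parental array. Any link between these differences and the values of the writers was not tested.

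The reader list, demethylation and repair genes, and methyl donor metabolism had 0 calls. The reader list is broad and also holds genes for proteins that do not bind methylated CpG, such as Kdm2b and Trim28. Of its 13 measured genes 0 passed in limma, with a median of 0.02. An unadjusted p under 0.05 was reached by 2, both higher. Kdm2b, which binds unmethylated CpG islands, differed by 0.40 (SE 0.08, adjusted p = 0.122), and Trim28, the corepressor of KRAB zinc finger proteins, by 0.02 (adjusted p = 0.977). Of 14 demethylation and repair genes 0 passed and 0 had an unadjusted p under 0.05 in limma. In that list Apex1, an abasic site nuclease gene, differed by 0.12 (adjusted p = 0.737) and Parp1 by -0.08 (adjusted p = 0.824). Of 12 genes of methyl donor and oxoglutarate supply 0 passed, with 2 lower at an unadjusted p under 0.05 in limma. Ahcy, which clears the product of methyl transfer, differed by 0.02 (adjusted p = 0.973) and the folate enzyme gene Mthfd1 by 0.14 (adjusted p = 0.699).

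Several germline genes with promoters known to be silenced by DNA methylation fell. Of 28 measured, 9 fell, 0 rose and 19 did not pass, against 0.511% of all genes that fell, and the median change was -0.40. Only 20 of the 28 had a group mean above background, and the rest could hardly show a fall. This list was chosen with germ cell falls in these samples already known, so its direction is no independent evidence. Syce1, of the synaptonemal complex, read 7.01 ± 0.03 (SD, n = 3) against 3.37 ± 0.16 (SD, n = 3) and was at least 9.38-fold lower (adjusted p = 4.21e-06, limma). Mael, of the piRNA pathway, was at least 8.02-fold lower and Dazl, an RNA-binding protein gene, at least 3.10-fold. Sohlh2, a germ cell transcription factor gene, fell by 2.39 and Tex19.1, a transposon control gene, by 1.30 (adjusted p = 0.0359). The other falls were Ddx4 (at least 2.16-fold), Cyct (at least 1.55-fold), Stk31 (at least 1.39-fold) and Slc25a31 (at least 1.15-fold). Of the genes chosen after their values were seen, Hormad1, a meiotic axis gene, missed the threshold at -1.42 (adjusted p = 0.0654), and Sycp3 at -0.61 (adjusted p = 0.102). These falls stood beside a rise of Dnmt3l and differences of 0.19 or less in size for Dnmt3a, Dnmt3b, Dnmt1 and Uhrf1. The Tet1 signal was at 71.2%, 79.0%, 86.9% and 98.4% of the parental level on its 4 probe sets, none of them called. Any link between these genes and the germline falls was not tested.

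**Figure D4:**
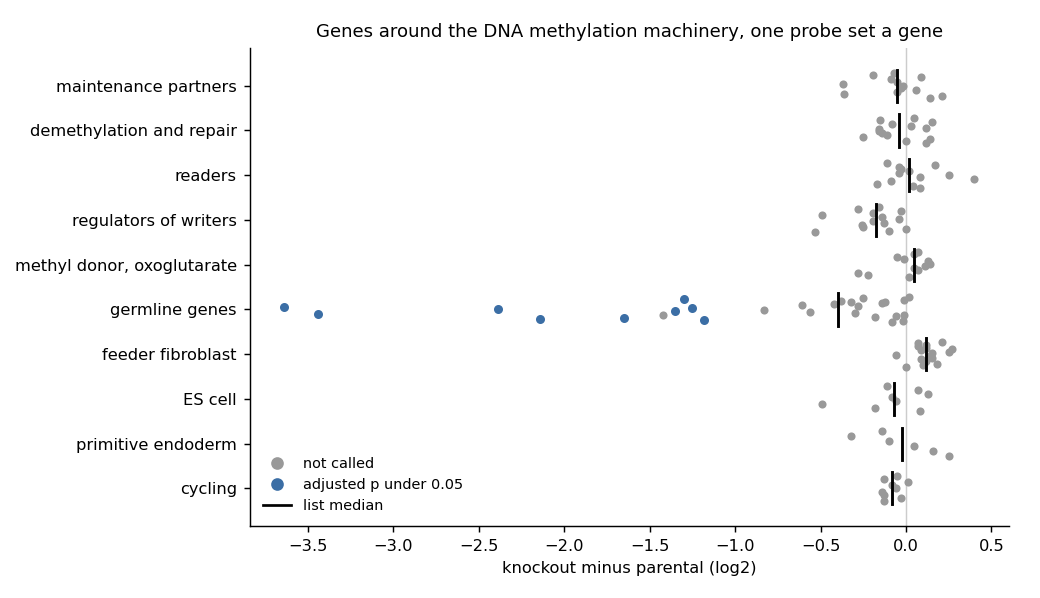
Change (knockout minus parental, log2, horizontal axis) of each gene in 10 lists around DNA methylation and the cell types present, 1 probe set a gene. Bars are list medians and blue points have an adjusted p under 0.05 (limma). The 9 blue points are all germline genes, between -3.64 and -1.18, and the other lists have medians between -0.17 and 0.12.

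Markers of other cell states had 0 calls too. Cycling genes, of which 8 of 9 had a group mean above background, had a median of -0.08. In limma 0 of the 9 passed the test and 0 had an unadjusted p under 0.05. Rrm2 and Mcm5, the most abundant, differed by 0.01 and -0.14. Primitive endoderm genes had a median of -0.02 with 0 of 6 passing and 1 lower at an unadjusted p under 0.05. Gata4, named after its values were seen, lay at or below 3.59 on every array, below background. It was the exception, as 5 of the 6 had a group mean above background. Dab2 and Lama1, the brightest of that list, differed by 0.25 (adjusted p = 0.682) and -0.32 (adjusted p = 0.403). Of the 8 ES cell markers 0 passed the test of limma, and 1, Nanog, was lower at an unadjusted p under 0.05. Dppa5a, the brightest of them, differed by 0.08 (adjusted p = 0.781).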

How the data were processed

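Biotin-labelled RNA from 6 mouse ES cell samples, 3 a group, was measured on Affymetrix arrays, per the labels. The authors deposited 1 log2 expression value per probe set and array. Per the submitters' processing notes these came from RMA, a robust multi-array average. The sources used here do not name its software or settings, and the log2 scale was read from the values. RMA gives arrays a shared distribution, so a general shift would not show. Of the probe sets, 64 controls were left out. Array pairs correlated between 0.994 and 0.997, array medians were 4.21 to 4.25, and no arrays were identical. The number of arrays limits the precision.

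Knockout was compared with parental by limma 3.58.1 (R 4.3.3) over all 45037 probe sets (lmFit, eBayes, two-sided, no covariate), adjusted by Benjamini-Hochberg with a threshold of 0.05. The fit was tested on simulated data. As background level, the 95th percentile was taken over the mean values of 80 olfactory and vomeronasal receptor probe sets. Where each dimmer array lay at or below it, the fold is a bound against that level. The members and lists were chosen with earlier results of these data known. Named genes were all member probe sets, Dppa4, Pou5f1, Sox2, Nanog, list members that passed or else the 2 brightest, and the 5 genes closest to Dnmt3l. Outside this rule, Hells, Cdca7, Cdca7l, Dppa3, Prdm14, Hormad1, Sycp3 and Gata4 were named with their values already seen. The labels do not say that replicates were separate cultures, so a p-value covers just the spread among these arrays, which may be technical. Arrays with the same replicate number did not consistently deviate together (correlations 0.112, -0.364 and -0.287). These correlations cannot exclude that equal numbers mark a pairing, and the replicate block is among the alternatives. Alternatives are given at the end.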

Additional observations from a re-analysis of the deposited data

How the results depend on the processing

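The alternatives were fixed together with the tests. Dnmt3l kept its direction under all 13 that gave it a value and stayed called under 6, with adjusted p from 0.00288 (intensity trend with robust prior) to 0.274 (no moderation). The count of called members, 1 over all arrays, was 0 with the replicate block, with no moderation and without x_at and s_at probe sets, where Dnmt3l has no probe set, and 0 to 1 without 1 array. No other member was called under any alternative run. Of 264 member values under alternatives, 15 were counted as turned in sign, all with 1 array left out and all uncalled. Among them, Uhrf1 1415810_at without knockout replicate 1 came to 0.00, so its turn is not shown. The 15 values lay between -0.12 (Dnmt3a 1460324_at, without parental replicate 1) and 0.18 (Dnmt3a 1423064_at, without knockout replicate 1). The whole table gave 181 calls, against 88 with the replicate block, 312 with the trend and robust prior, 1 with no moderation and 70 to 112 without 1 array. The germline list went from 9 calls to 0 with no moderation and held 6 to 12 without 1 array. With the trend and robust prior 1 gene of the reader list (Kdm2b) and 1 ES cell marker (Nanog) were called. With 3 arrays a group, exact tests cannot reach 0.05.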
